A study of Homo sapiens with 40 samples.

Results

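The first 6 h of exposure to interleukin-10 (IL-10) were followed in OCI-Ly3 cells on 6 of the 40 arrays of the series, chosen by their labels as the arrays of OCI-Ly3 with IL-10 at 1, 3 and 6 h, 2 at each time. OCI-Ly3 is an established human line of activated B cell-like diffuse large B cell lymphoma. IL-10 was given at 50 ng/ml, and each spotted array carried RNA of the treated cells in its Cy5 channel and of untreated OCI-Ly3 cells in its Cy3 channel. The series asks how STAT3 and NF-kB signalling act on gene expression in such lines. Comparisons are made here with the 2 arrays of the same cells after 24 h of IL-10 and with the 6 arrays of OCI-Ly10, a line of the same lymphoma class, after 1, 3 and 6 h of interleukin-6 (IL-6) at 50 ng/ml. The fit of the spread takes in the other arrays too: later IL-10 times and other IL-6 times, a doxycycline-induced IkB super-repressor in either line, and STAT3 siRNA or JAK inhibitor I in OCI-Ly10. All these arrays set a treated culture against untreated cells of its own line. The labels do not say whether the untreated RNA was collected at the same times, whether arrays shared it, or whether the replicates came from different cultures; the p-values therefore reflect the spread between these arrays, which may be technical. The findings are those of 1 line treated with 1 dose.

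IL-10 binds a receptor of IL10RA and IL10RB chains, whose bound kinases JAK1 and TYK2 phosphorylate STAT3. STAT3 dimers then enter the nucleus and bind TTCNNNGAA elements, and the genes they switch on include the SOCS proteins and phosphatases that damp the same receptors. In myeloid cells IL-10 is known for holding down inflammatory cytokines such as TNF, and in B cells for supporting survival and differentiation towards antibody-secreting cells; lymphomas of the activated B cell-like class commonly make IL-6 and IL-10 and carry active NF-kB.

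Values are deposited log ratios of IL-10-treated over untreated cells, taken to be in base 2, which the labels do not state, and are called ratios below. A pair of values gives replicate 1 first, and ± is the standard error of the limma fit unless SD is written. A gene was called where its adjusted p was under 0.05, and "rose", "fell" and "changed" are used only of called genes. Ratios carry no level, so whether B cell markers were present could not be checked, and a change in the share of responding cells cannot be told apart from a change in RNA per cell.

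The 6 arrays gave values for 13688 to 14251 of 15246 probes and, through probes with 1 gene symbol, tests of 4428 genes. All 3 arrays of replicate 1 have neighbouring array numbers, and so have all 3 of replicate 2, so the replicate number is also a run of arrays; what a run was is not stated. Across 4117 genes, the correlation was 0.516 to 0.688 between arrays of the same run at different times, and 0.255, 0.311 and 0.308 between the replicates at 1, 3 and 6 h. The means of the 2 runs correlated at 0.275 (Spearman 0.111) across 4428 genes. Over all genes the runs were thus weakly correlated, while the genes with the highest means were high in both, as the plot of replicate 1 against replicate 2 shows. Counts of calls are therefore given also with the run as a random block and with the replicate number as a fixed block. Standard errors, adjusted p and the words for called genes refer to the fit without a block unless a block or another fit is named. That fit treats the arrays of a run as independent.

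**Figure D1:**
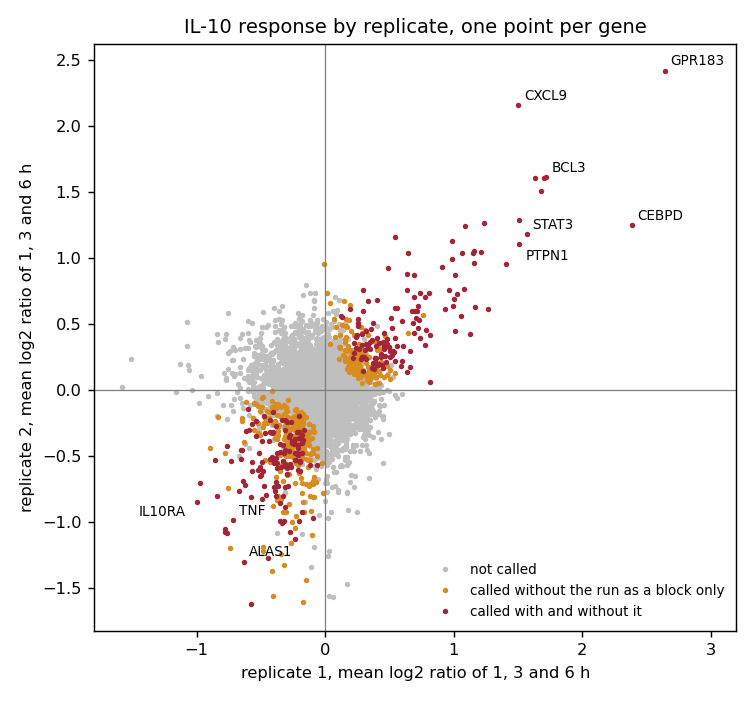
Mean log2 ratio over 1, 3 and 6 h in replicate 2 (vertical) against replicate 1 (horizontal), 1 point per gene tested (4428). Red points are called with and without the run as a random block, orange points only without it, and the cloud of grey points runs across the diagonal (r = 0.275 over all genes) while GPR183, BCL3, STAT3 and CXCL9 are high in both replicates.

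Averaged over the 3 times, 652 of 4428 genes changed (14.7%), of which 270 rose (6.10%) and 382 fell (8.63%). With the run as a random block 270 genes were called, 142 higher (3.21%) and 128 lower (2.89%), and with the replicate block 1009. The adjusted p of BCL3 for the mean, for example, was 1.54e-11 by limma without a block and 1.39e-09 with the run block. Of the 30 genes named for the mean, 28 kept their call with the run block. Among the genes that rose, 66 had a mean ratio of at least 0.5 and 19 of at least 1, whereas 82 of those that fell reached 0.5 in size and 1 reached 1. All measured arrays had the same sign for 205 of the 270 higher genes and for 229 of the 382 lower genes. Leaving out the second array at 1 h gave 357 calls, and leaving out the second at 3 h gave 412.

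GPR183, CXCL9, CEBPD, BCL3, SOD2, CD36, SOCS2, ELF3, STAT3 and PTPN1 had the highest means among those called genes that kept 1 sign on all arrays. The lowest means were those of ALAS1, ACKR3, IL10RA, MPEG1, GAB1, ANKRD12, TNF and HHEX. GPR183, the oxysterol receptor that positions B cells in lymphoid tissue, had ratios of 1.70 and 1.66 at 1 h, 2.44 and 2.54 at 3 h and 3.79 and 3.06 at 6 h. It rose by a mean of 2.53 ± 0.11 (adjusted p = 7.09e-12), and each time lay above the one before in both replicates. ANKRD12 and SCYL2 are among the lowest 15 genes whose calls did not hold with the run as a block. Their adjusted p was then 0.0984 and 0.0665, and over all alternatives it ran from 0.00794 to 0.104 for ANKRD12 and from 0.00485 to 0.069 for SCYL2.

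**Figure D2:**
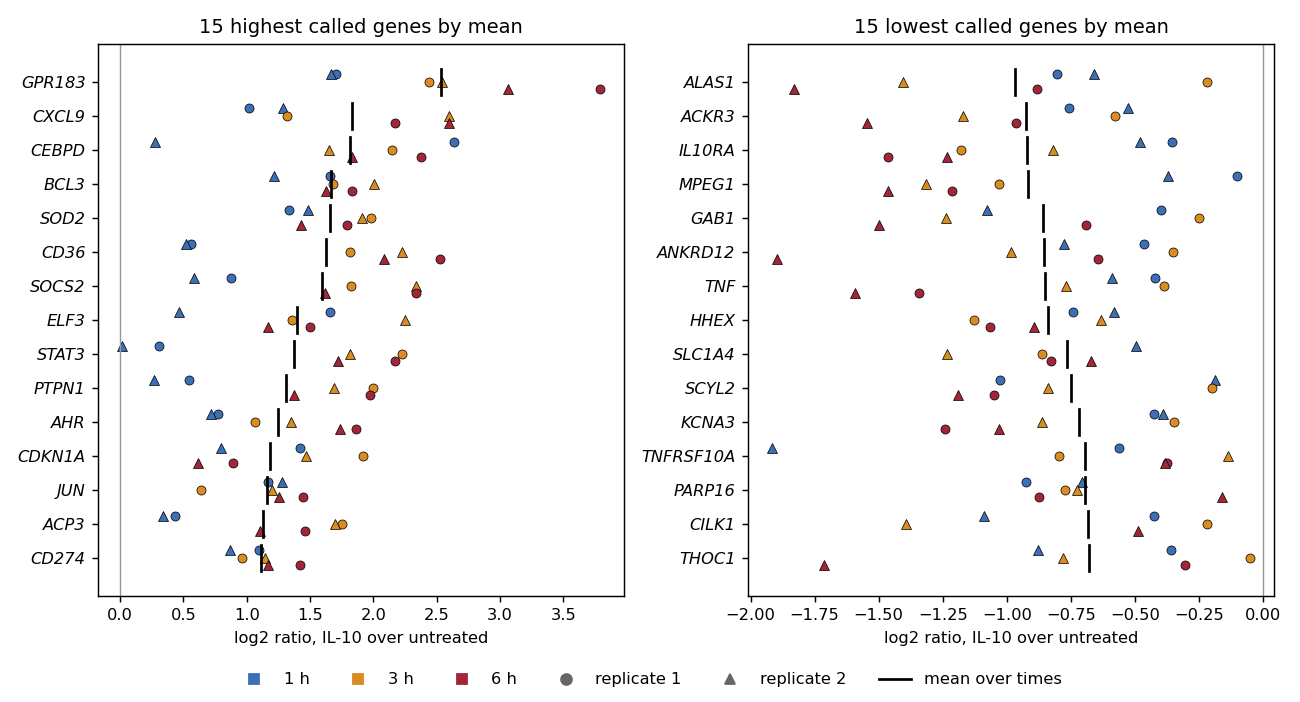
Log2 ratio of IL-10 over untreated cells (horizontal) on each of the 6 arrays for the 15 highest (left) and 15 lowest (right) called genes that kept 1 sign on all arrays with a value; colour gives the time, shape the replicate and the bar the fitted mean over times. STAT3 and PTPN1 lie lower at 1 h than at 3 and 6 h, BCL3 and JUN are well above 0 at every time, and in ALAS1, GAB1 and THOC1 the triangles of replicate 2 lie below the circles of replicate 1 at 3 and 6 h.

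Of 11 tested genes of the IL-10 receptor, JAK and STAT list, 4 rose and 3 fell (with the run block 2 and 2), and the list's median was 0.157 against -0.020 over all genes. The lists were chosen with earlier results of these data known, so their shares are descriptive. The counts of this list and of those below are to be read beside the shares over all genes. These were 6.10% higher and 8.63% lower without a block, and 3.21% and 2.89% with the run block. STAT3, the transcription factor activated by the receptor, stood at 0.31 and 0.018 at 1 h, 2.23 and 1.82 at 3 h and 2.17 and 1.72 at 6 h. Both arrays at 1 h were close to 0 and all later arrays were far above it, giving a mean of 1.38 ± 0.14 (adjusted p = 5.2e-07). IL10RA, the chain that binds IL-10, had ratios of -0.35 and -0.48 at 1 h, -1.18 and -0.82 at 3 h and -1.46 and -1.24 at 6 h. It was below 0 on every array, with a mean of -0.92 ± 0.062 (adjusted p = 3.01e-09), and its 6 h value lay below its 1 h value, with 6 h minus 1 h at -0.93 ± 0.15 (adjusted p = 0.00187). IL10RB, the shared second chain, was not called at 0.08 ± 0.06, nor was JAK1 at 0.038 ± 0.094. STAT5A, a further STAT protein, was at -0.14 and -0.14 at 1 h, 0.82 and 0.56 at 3 h and 0.81 and 0.56 at 6 h, with a mean of 0.41 ± 0.084 (adjusted p = 0.00266). Its 2 probes differed in sign at 1 h, the first being at -0.331 and -0.530 and the second at 0.056 and 0.259. The value in replicate 1 at 3 h came from the first probe alone. Both probes were above 0 wherever they had a value at 3 and 6 h. TYK2 was not analysed here. The falls of 2 further members, chosen after their values were seen, were -0.37 ± 0.09 for JAK2, lost with the run block (adjusted p = 0.0617), and -0.27 ± 0.055 for IL6R, the IL-6 receptor chain.

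Feedback inhibitors of JAK-STAT signalling rose in 6 of 14 cases and fell in none, beside 6.10% and 8.63% of all genes, and 4 of the rises held with the run block. The list's median was -0.027, against -0.020 over all genes. SOCS2, which targets cytokine receptor complexes for degradation, was at 0.88 and 0.59 at 1 h, 1.82 and 2.34 at 3 h and 2.34 and 1.62 at 6 h. Its mean was 1.60 ± 0.10 (adjusted p = 1.79e-09), with both 1 h arrays below all later ones. The 2 SOCS2 probes differed at 1 h, the first being at 0.373 and -0.189 and the second at 1.379 and 1.362. Each probe was lower at 1 h than on any later array. PTPN1, a phosphatase that acts on JAK2 and TYK2, had ratios of 0.54 and 0.27 at 1 h, 2.00 and 1.68 at 3 h and 1.97 and 1.38 at 6 h and a mean of 1.31 ± 0.084 (adjusted p = 1.79e-09). PTPN2, the related phosphatase of nuclear STATs, followed with 0.21 and 0.20 at 1 h, 0.84 and 0.85 at 3 h and 1.08 and 0.75 at 6 h and a mean of 0.66 ± 0.064 (adjusted p = 4.2e-07). All 3 were higher at 6 h than at 1 h, with adjusted p of 0.0123, 0.00187 and 0.0258. CISH, a member of the SOCS family singled out after its values were seen, rose by 0.63 ± 0.10 (adjusted p = 0.000303).

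SOCS3, the inhibitor most tied to STAT3, gave no clear result. Its mean was 0.36 ± 0.10 (adjusted p = 0.027), lost with the run block (adjusted p = 0.126; from 0.00757 to 0.712 over the alternatives). Its 3 probes disagreed, with means of -0.193, -0.086 and 2.047. The third probe had values on 4 arrays, 2.510 in replicate 2 at 1 h, 1.649 in replicate 2 at 3 h and 2.542 and 1.424 at 6 h. The probe was thus high wherever it had a value, and on the other 2 arrays the gene's value came from the other probes. SOCS1, a direct inhibitor of the JAK kinases, was called at 0.26 ± 0.06 (adjusted p = 0.00764), also lost with the run block (0.0597; from 0.0061 to 0.104 over the alternatives).

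In the list of known STAT3 targets 19 of 35 genes rose and 3 fell, and 14 and 2 did so with the run block. The backgrounds were 6.10% and 8.63% without it and 3.21% and 2.89% with it. Its median was 0.188. CEBPD, a transcription factor of the acute-phase response, was at 2.63 and 0.28 at 1 h, 2.14 and 1.65 at 3 h and 2.37 and 1.83 at 6 h. The replicates differed most at 1 h, and the mean was 1.82 ± 0.21 (adjusted p = 3.08e-05). BCL3, an atypical IkB protein that joins NF-kB p50 and p52 on DNA, was at 1.66 and 1.22 at 1 h, 1.68 and 2.01 at 3 h and 1.83 and 1.62 at 6 h. Every array lay far above 0, with a mean of 1.67 ± 0.076 (adjusted p = 1.54e-11) and no called difference between times (adjusted p = 0.932). JUNB, an AP-1 subunit, had ratios of 1.11 and 0.91 at 1 h, 0.81 and 0.65 at 3 h and 1.10 and 1.06 at 6 h and a mean of 0.94 ± 0.053 (adjusted p = 4.2e-10); 1 of its 4 probes was near 0, at 0.085, and the others lay between 0.801 and 1.477. PRDM1, the regulator of plasma cell fate, rose by 0.84 ± 0.11 (adjusted p = 1.46e-05) and IRF4, which acts with it, by 0.73 ± 0.10 (adjusted p = 5.47e-05). MCL1, a survival protein of the BCL2 family, rose by 0.65 ± 0.057 (adjusted p = 9.72e-08). MYC, the growth-promoting factor, fell on every array, at -0.22 and -0.69 at 1 h, -0.34 and -0.76 at 3 h and -0.45 and -1.56 at 6 h, with a mean of -0.67 ± 0.13 (adjusted p = 0.0019). Its lowest value was the second array at 6 h. PIM1, a kinase gene often induced by STAT3, was not called at 0.034 ± 0.12, above 0 on the arrays of replicate 1 and below 0 on those of replicate 2.

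IL-10-induced genes of myeloid cells rose in 4 of 18 cases and fell in 1, or 3 and 0 with the run block, and their median was -0.002. Besides BCL3 these were ZFP36, HMOX1 and SOCS3. ZFP36, which speeds the decay of cytokine mRNA, had ratios of 1.29 and 0.97 at 1 h, 0.94 and 0.71 at 3 h and 0.85 and 0.51 at 6 h and a mean of 0.88 ± 0.064 (adjusted p = 1.18e-08). HMOX1, heme oxygenase, rose by 0.39 ± 0.064 (adjusted p = 0.000354).

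Among immediate-early and AP-1 genes 7 of 23 rose and 3 fell (6 and 2 with the run block). JUN was at 1.16 and 1.28 at 1 h, 0.64 and 1.20 at 3 h and 1.45 and 1.25 at 6 h, with a mean of 1.16 ± 0.075 (adjusted p = 1.79e-09), and 4 of its 5 probes averaged 1.065 to 1.398, while the fifth stood at -0.004 on the 1 array where it had a value. ATF3, a stress-induced bZIP factor, was at 1.48 and 1.04 at 1 h, 1.03 and 0.59 at 3 h and 1.00 and 0.26 at 6 h and rose by a mean of 0.90 ± 0.095 (adjusted p = 1.42e-06). ZFP36L1, a relative of ZFP36, fell to a mean of -0.67 ± 0.065 (adjusted p = 4.08e-07), and PHLDA1, an early response gene outside the list, rose by 1.05 ± 0.082 (adjusted p = 2.05e-08). ELF3, an ETS factor of epithelia, had ratios of 1.66 and 0.46 at 1 h, 1.36 and 2.25 at 3 h and 1.50 and 1.17 at 6 h and a mean of 1.40 ± 0.12 (adjusted p = 9.39e-08). AHR, the aryl hydrocarbon receptor, had ratios of 0.77 and 0.72 at 1 h, 1.06 and 1.35 at 3 h and 1.86 and 1.73 at 6 h. It rose by a mean of 1.25 ± 0.082 (adjusted p = 2.2e-09); its 4 probes averaged 0.262 to 2.009.

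Of NF-kB subunits and inhibitors 3 of 14 rose and 2 fell (2 and 1 with the run block), and of NF-kB targets 10 of 33 rose and 4 fell (7 and 3), with a median of 0.139. SOD2, mitochondrial superoxide dismutase, was at 1.33 and 1.48 at 1 h, 1.98 and 1.91 at 3 h and 1.79 and 1.43 at 6 h and rose by a mean of 1.65 ± 0.12 (adjusted p = 2.52e-08). BIRC2, an inhibitor of apoptosis and of non-canonical NF-kB, rose by 0.92 ± 0.077 (adjusted p = 5.21e-08), and TNFAIP3, the ubiquitin-editing inhibitor A20, by 0.62 ± 0.098 (adjusted p = 0.000238). NFKBIE, another inhibitor, was at -0.12 and -0.33 at 1 h, 0.06 and -0.36 at 3 h and -0.88 and -0.97 at 6 h and fell, with a mean of -0.43 ± 0.089 (adjusted p = 0.00266), with its low values at 6 h. NFKBIA, which encodes IkB alpha, was not called at 0.28 ± 0.10 (adjusted p = 0.0732; from 0.0211 to 0.374 over the alternatives), with replicate 1 above replicate 2 at every time. No subunit gene other than RELB was called, and RELB, at 0.27 ± 0.076, lost its call with the run block (adjusted p = 0.117).

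Of 60 cytokine and chemokine genes 5 rose and 10 fell, and 4 and 3 did so with the run block. CXCL9, an interferon-inducible chemokine, was at 1.02 and 1.28 at 1 h, 1.32 and 2.60 at 3 h and 2.17 and 2.60 at 6 h. Its mean was 1.83 ± 0.14 (adjusted p = 1.43e-08), and its 6 probes averaged from 0.337 to 2.349. TNF, the inflammatory cytokine, had ratios of -0.42 and -0.59 at 1 h, -0.39 and -0.77 at 3 h and -1.34 and -1.59 at 6 h. All 6 arrays were below 0, the mean was -0.85 ± 0.064 (adjusted p = 1.43e-08), and the 2 arrays at 6 h were the lowest. IL6 rose by 0.94 ± 0.12 (adjusted p = 1.49e-05) with ratios of 0.93 and 0.44 at 1 h, 0.96 and 0.66 at 3 h and 1.91 and 0.75 at 6 h, the first array at 6 h being highest. IL10 itself, at 0.21 and 0.39 at 1 h, 0.45 and 0.56 at 3 h and 1.38 and 0.58 at 6 h, rose by 0.60 ± 0.12 (adjusted p = 0.00265), again with its highest value in replicate 1 at 6 h. IFNG, the gene of interferon gamma, was below 0 on all arrays, with a mean of -0.42 ± 0.08 (adjusted p = 0.00126). Its 3 probes averaged -0.864, -0.376 and -0.056, and the last was the only one with a value on all 6 arrays. Of 32 cytokine receptor genes 4 rose and 1 fell (4 and 0 with the run block), among them the interleukin-2 receptor chains IL2RB at 0.54 ± 0.096 and IL2RA at 0.40 ± 0.087, and the interleukin-21 receptor IL21R at 0.32 ± 0.053. The IL2RB probes disagreed, with means of -0.233, -0.143, -0.057, 1.012, 1.029 and 1.174.

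CD274, which encodes the checkpoint ligand PD-L1, was at 1.10 and 0.87 at 1 h, 0.96 and 1.15 at 3 h and 1.42 and 1.16 at 6 h. The 6 arrays lay close together, with a mean of 1.11 ± 0.081 (adjusted p = 5.52e-08). CD36, a scavenger receptor for lipids, had ratios of 0.56 and 0.52 at 1 h, 1.82 and 2.22 at 3 h and 2.52 and 2.09 at 6 h and a mean of 1.62 ± 0.096 (adjusted p = 7.45e-10). Its 1 h arrays were below all later ones. ACP3, an acid phosphatase first known from prostate, was at 0.43 and 0.34 at 1 h, 1.75 and 1.70 at 3 h and 1.46 and 1.11 at 6 h, with a mean of 1.13 ± 0.075 (adjusted p = 1.21e-08). Checkpoint, co-stimulatory and adhesion genes rose in 2 of 28 cases and fell in 3 (2 and 1 with the run block), including CD70 at 0.48 ± 0.11 and CD83 at -0.45 ± 0.065. Over all genes 6.10% rose and 8.63% fell (3.21% and 2.89% with the run block). Of 17 migration receptors and RGS genes 3 rose and 3 fell (2 and 0 with the run block). CXCR5, the follicular homing receptor, rose by 0.59 ± 0.061 (adjusted p = 1.15e-06), highest at 1 h on both arrays (1.01 and 0.78 at 1 h, 0.52 and 0.53 at 3 h and 0.14 and 0.57 at 6 h); its 7 probes averaged from -0.042 to 1.284. ACKR3, a scavenging receptor of CXCL12, was at -0.76 and -0.52 at 1 h, -0.58 and -1.17 at 3 h and -0.96 and -1.55 at 6 h and fell, with a mean of -0.92 ± 0.078 (adjusted p = 1.01e-07). CXCR3, the receptor of CXCL9, fell without the block (mean -0.66 ± 0.14) but not with it (adjusted p = 0.0562; from 0.000248 to 0.0836 over the alternatives).

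Interferon-stimulated genes moved both ways: 11 of 44 rose and 7 fell, and 6 and 2 did so with the run block. Besides CXCL9 the highest were TAP1, the peptide transporter of antigen presentation, at 0.54 and 0.37 at 1 h, 1.49 and 1.12 at 3 h and 0.98 and 0.60 at 6 h, and TRIM22, an antiviral ubiquitin ligase. Their means were 0.85 ± 0.097 (adjusted p = 6.11e-06) and 0.63 ± 0.086 (adjusted p = 3.75e-05). MHC class I presentation genes rose in 4 of 13 cases and fell in none (2 and 0 with the run block); these included the immunoproteasome subunit PSMB9 at 0.38 ± 0.077 and TAP2 at 0.25 ± 0.079, whose call was lost with the run block (adjusted p = 0.167; from 0.0245 to 0.196 over the alternatives). MHC class II genes rose in 0 of 12 cases by limma, and 2 fell with and without the run block. These 2 were HLA-DQA1 at -0.17 and -0.11 at 1 h, 0.034 and -0.30 at 3 h and -0.51 and -0.82 at 6 h and HLA-DMB at 0.10 and 0.032 at 1 h, -0.038 and -0.33 at 3 h and -0.68 and -0.66 at 6 h. Both had their lowest values at 6 h on both arrays, with means of -0.31 ± 0.06 and -0.26 ± 0.054.

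Of 32 genes of B cell and germinal centre identity 3 rose and 8 fell, or 1 and 5 with the run block. HHEX, a homeobox transcriptional repressor, had ratios of -0.74 and -0.58 at 1 h, -1.13 and -0.63 at 3 h and -1.06 and -0.90 at 6 h and fell, with a mean of -0.84 ± 0.073 (adjusted p = 8.24e-08). ETS1, which restrains plasma cell formation, was at -0.077 and -0.28 at 1 h, -0.66 and -1.04 at 3 h and -0.75 and -1.15 at 6 h, with a mean of -0.66 ± 0.09 (adjusted p = 3.75e-05), and FOXP1 fell to a mean of -0.40 ± 0.065 (adjusted p = 0.000374). BCL6, the germinal centre repressor, was singled out after its values were seen; it rose by 0.39 ± 0.061 (adjusted p = 0.000199). In the plasma cell list 2 of 18 genes rose, PRDM1 and IRF4, and 4 fell (2 and 2 with the run block). CD38, a surface enzyme of plasma cells and germinal centre cells, was at 0.14 and -0.21 at 1 h, -0.29 and -0.58 at 3 h and -1.04 and -1.41 at 6 h, and fell to a mean of -0.56 ± 0.069 (adjusted p = 1.97e-05), its 1 h arrays lying on either side of 0. B cell receptor signalling genes were called in 2 of 24 cases: the exchange factor VAV1 rose by 0.42 ± 0.082 and the adaptor BLNK was at -0.30 ± 0.077, lost with the run block (adjusted p = 0.0629; from 0.00231 to 0.13 over the alternatives). The VAV1 probes averaged 0.117, 0.207 and 0.498, and the last was at -0.415 in replicate 2 at 1 h. Those of BLNK averaged from -0.820 to 0.493.

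MAP kinase and DUSP genes rose in 3 of 22 cases and fell in 3 (2 and 2 with the run block): the phosphatase DUSP2 rose by 0.57 ± 0.074 (adjusted p = 2.13e-05), while DUSP5 and the kinase MAP3K8 fell to a mean of -0.59 ± 0.074 and -0.56 ± 0.068. In the BCL2 and survival list 8 of 27 rose and 4 fell, or 3 and 3 with the run block. BMF, which promotes apoptosis, was at 0.60 and 0.49 at 1 h, 1.09 and 1.31 at 3 h and 1.04 and 1.005 at 6 h and rose by a mean of 0.92 ± 0.089 (adjusted p = 4.17e-07), alongside the survival genes BIRC2 and MCL1, whereas BCL2, named after its values were seen, fell to a mean of -0.63 ± 0.068 (adjusted p = 1.85e-06). CDKN1A, the cell cycle inhibitor p21, had ratios of 1.42 and 0.80 at 1 h, 1.92 and 1.47 at 3 h and 0.89 and 0.61 at 6 h and a mean of 1.18 ± 0.099 (adjusted p = 5.21e-08); its 3 probes averaged 0.536, 1.582 and 2.093, the last from 1 array. Over the cell cycle list 6 of 49 rose and 3 fell (2 and 1 with the run block), beside 6.10% and 8.63% of all genes (3.21% and 2.89%). Among them were cyclin CCND3, up at 0.70 ± 0.057 (adjusted p = 4.1e-08), and the mitotic kinase NEK2, down at -0.55 ± 0.14. The CCND3 probes averaged from -0.050 to 1.319, and those of NEK2 -1.036 and -0.060.

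Lists of growth and metabolism gave the following counts, beside 6.10% higher and 8.63% lower over all genes (3.21% and 2.89% with the run block). MYC and growth-linked genes rose in 1 of 20 cases (the transferrin receptor TFRC, 0.58 ± 0.11) and fell in 2 (MYC and the chaperonin HSPD1, -0.44 ± 0.084), the same counts with the run block. Glycolysis and hypoxia genes rose in 4 of 28 cases and fell in 2 (1 and 0 with the run block), led by PFKFB3, which drives glycolytic flux, at 0.50 ± 0.052. Integrated stress response genes rose in 2 of 15 cases and fell in 1 (1 and 1); the fall was that of SLC1A4, an amino acid transporter, at -0.76 ± 0.095 (adjusted p = 1.62e-05). Sterol synthesis genes rose in 0 of 10 cases by limma and fell in 1, STARD4 at -0.43 ± 0.11, lost with the run block (adjusted p = 0.0668; from 0.00269 to 0.107 over the alternatives). TGF-beta, BMP and ID genes rose in 2 of 18 cases and fell in 3 (1 and 1), led by ID2, an inhibitor of helix-loop-helix factors, at 0.78 ± 0.14 (adjusted p = 0.000837). Cytosolic ribosomal protein genes rose in 3 of 25 cases and fell in none (1 and 0), led by RPS21 at 0.33 ± 0.076.

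**Figure D3:**
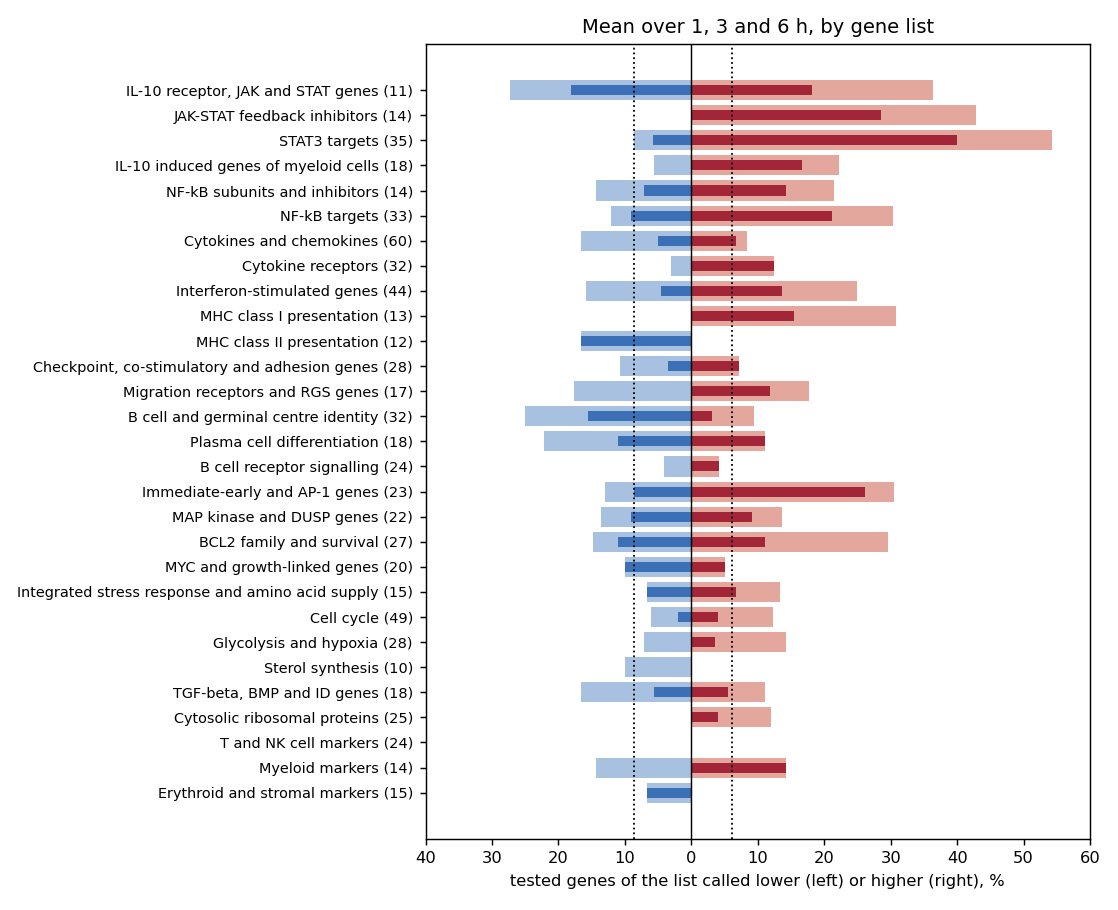
Percent of tested genes in each list that were called lower (left, blue) or higher (right, red) over the mean of 1, 3 and 6 h; pale bars are calls without a block, dark bars with the run as a random block, and numbers in brackets are genes tested. Dotted lines mark the shares over all genes without a block, 8.63% lower and 6.10% higher. STAT3 targets (19 of 35) and feedback inhibitors (6 of 14) have the longest bars to the right. The lists were chosen with earlier results of these data known.

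Markers of other cell types were read beside these genes. Of 14 myeloid markers CD36 and CD14 rose, CD14 with ratios of 0.45 and 0.36 at 1 h, 0.76 and 1.14 at 3 h and 1.004 and 0.70 at 6 h and a mean of 0.74 ± 0.12 (adjusted p = 0.000391), and FCGR3A and ITGAM fell, at -0.38 ± 0.11 and -0.23 ± 0.054; the median of the list was 0.027, and the 2 falls were lost with the run block. T and NK cell markers were called in 0 of 24 cases by limma, with a median of 0.003, and with the run block in 0. Erythroid and stromal markers fell in 1 of 15 cases, vimentin (VIM) at -0.27 ± 0.061. Among 11 B cell markers none rose and 3 fell (MS4A1 at -0.38 ± 0.092, BLNK and POU2AF1), 1 of them with the run block. Whether other cells had a part in the rises of CD36 and CD14 was not tested.

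In ALAS1, GAB1, ANKRD12, CILK1 and THOC1 of the lowest 15 genes, replicate 2 was much lower than replicate 1 on average. ALAS1, the first enzyme of heme synthesis, was at -0.80 and -0.66 at 1 h, -0.22 and -1.41 at 3 h and -0.88 and -1.83 at 6 h, with a mean of -0.97 ± 0.20 (adjusted p = 0.0028) and its run-block p at 0.0347. GAB1, a docking protein of receptor signalling, was at -0.40 and -1.08 at 1 h, -0.25 and -1.24 at 3 h and -0.69 and -1.50 at 6 h, with a mean of -0.86 ± 0.16 (adjusted p = 0.00135). THOC1, a subunit of the mRNA export complex, was at -0.36 and -0.88 at 1 h, -0.051 and -0.78 at 3 h and -0.30 and -1.71 at 6 h, and its call was lost when the second array at 1, 3 or 6 h was left out (adjusted p = 0.0737, 0.0777 and 0.0727). CILK1, a kinase of cilia, at -0.68 ± 0.16, lost its call without the second array at 1 h (adjusted p = 0.0505). MPEG1, a pore-forming protein of phagocytes, fell in both replicates, at -0.10 and -0.37 at 1 h, -1.03 and -1.32 at 3 h and -1.21 and -1.46 at 6 h and a mean of -0.92 ± 0.07 (adjusted p = 1.5e-08). The potassium channel KCNA3, at -0.72 ± 0.14, the death receptor TNFRSF10A, at -0.69 ± 0.14, and the ADP-ribosyltransferase PARP16, at -0.69 ± 0.11, were also among the lowest 15.

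At 1 h alone 43 genes were called (0.971%), 26 higher and 17 lower, at 3 h 159 (3.59%), 98 higher (2.21%) and 61 lower (1.38%), and at 6 h 315 (7.11%), 140 higher (3.16%) and 175 lower (3.95%). With the run block the counts were 46 (1.04%), 167 (3.77%; 103 higher, 2.33%) and 306 (6.91%; 135 higher, 3.05%, and 171 lower, 3.86%). The spread of the arrays grew as well: the median absolute deviation of the ratios was 0.155 and 0.158 at 1 h, 0.215 and 0.184 at 3 h, and 0.213 and 0.293 at 6 h. With all arrays scaled to the same spread the counts were 79 at 1 h (34 higher, 45 lower), 121 at 3 h (74, 47) and 89 at 6 h (48, 41), so that the counts no longer increased with time and most calls at 1 h were then lower. The replicate block gave 73, 294 and 556. Without the second 1 h array 26 genes were called at 1 h, without the first 3 h array 84 at 3 h, and without the second 6 h array 146 at 6 h.

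Of the 23 immediate-early and AP-1 genes 4 rose at 1 h and 1 fell, with and without the run block, against backgrounds of 0.587% and 0.384%. Among the genes named as high at 1 h, GPR183 was at 1.68 ± 0.19 (adjusted p = 1.6e-05), BCL3 at 1.44, SOD2 at 1.41, PHLDA1 at 1.31, ATF3 at 1.26, JUN at 1.22, CXCL9 at 1.15 and ZFP36 at 1.13. In a limma fit of the 6 arrays alone, 1 of the 16 genes named at 1 h kept its call, SOD2. The adjusted p was then 0.0553 for GPR183 and BCL3, 0.0993 for JUN and ZFP36, 0.131 for PHLDA1 and 0.203 for ATF3. In 6 of the 16 genes named at this time the call held whichever of the 6 arrays was left out: GPR183, BCL3, PHLDA1, ATF3, JUN and ZFP36. Leaving out an array gave adjusted p of 0.0606 for SOD2 and up to 0.457 for CXCL9, in each case without a 1 h array. The genes named as lower at 1 h were less even. NUDCD2, a chaperone-associated protein, was at -0.28 and -2.05 and TNFRSF10A at -0.56 and -1.92, so that their low means came from the second array (adjusted p = 0.98 and 0.945 without it). HHEX, ACKR3, IFNG, CSRP3, YLPM1 and PDE4B were lower with adjusted p of 0.00901, 0.0221, 0.0104, 0.0431, 0.0485 and 0.00112. All but CSRP3 lost their call without 1 of the 1 h arrays on which they had a value, and YLPM1 also without either 6 h array. CSRP3 had a value at 1 h only in replicate 2 and could not be tested without that array. Its call was also lost without replicate 1 at 1 h, although its value stayed at -1.077. The low value of IFNG at 1 h came mainly from 1 probe, at -1.396 and -1.566, while the probe with values on all arrays was at -0.056 and -0.061. With probes on at least 5 arrays its 1 h value was -0.137 (adjusted p = 0.924; from 0.000546 to 0.924 over the alternatives).

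At 3 h the highest genes with 1 sign on all arrays were GPR183, SOCS2, STAT3, CD36, CXCL9, SOD2, CEBPD and BCL3, at 2.49, 2.08, 2.02, 2.02, 1.96, 1.94, 1.90 and 1.84. The lowest were MPEG1 at -1.17, SLC1A4 at -1.05, IL10RA, at -1.18 and -0.82 on its 2 arrays, and ZFP36L1 at -0.98. FLT3, a growth factor receptor (-0.90), HHEX (-0.88), the chemokine CCL26 (-0.88) and ACKR3 (-0.87) were also lower, and each lost its call without 1 of the 3 h arrays, as did CEBPD (adjusted p = 0.182 without the first). By 6 h GPR183 reached 3.42 ± 0.19, CXCL9 2.39, CD36 2.30 and AHR 1.80. TNF was then at -1.47 ± 0.11, IL10RA at -1.35 ± 0.11 and MPEG1 at -1.34 ± 0.12. Of the 16 genes named at 6 h 11 kept their call whichever array was left out.

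Tested between times, 42 genes differed (0.949%; 77 with the run block, 66 with the replicate block). In 20 of the 42 the 6 h value was farther above 0 than the 1 h value, in 20 farther below, and in 2 the 1 h value was the farther above 0. The largest deviation lay at 3 h in 9 genes, and 13 had opposite signs at 1 and 6 h. After scaling to equal spread 5 genes differed, and in a fit of these arrays alone 0 did by limma, against 271 at an unadjusted p under 0.05 in the fit of all 40 arrays. Between 1 and 3 h 22 genes differed (0.497%), 12 higher and 10 lower at 3 h, whereas 0 were called between 3 and 6 h by limma (278 at an unadjusted p under 0.05). The difference of 3 h minus 1 h from 6 h minus 3 h was not itself tested. Between 6 and 1 h 45 genes differed (1.02%), 24 higher (0.542%) and 21 lower (0.474%). With the run block these counts were 43, 6 and 81, with the replicate block 32, 6 and 76, and after scaling 10 (3 higher), 0 and 4 (0 higher). The 6 genes between 3 and 6 h with the run block, named after their values were seen, were CD38, CYTH4, HTR3A, NEBL, TCL1A and TNF; 1 was higher at 6 h (0.0226%). Of the 81 between 6 and 1 h with that block 44 were lower (0.994%).

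By the averages of their probes, the first group of these genes was near 0 or slightly raised at 1 h and high at 3 h. For SOCS2 this held of 1 probe, while the other was already at 1.379 and 1.362 at 1 h. From 1 to 3 h STAT3 rose by 1.86 ± 0.33 (adjusted p = 0.0107), PTPN1 by 1.44 ± 0.21 (0.00151), CD36 by 1.48 ± 0.24 (0.00394), SOCS2 by 1.35 ± 0.25 (0.0123) and ACP3 by 1.34 ± 0.18 (0.00151). CLIP1, a protein of microtubule ends, stood at -0.019 and 0.093 at 1 h, 0.95 and 1.41 at 3 h and 1.15 and 1.12 at 6 h, a difference of 1.14 ± 0.16 (adjusted p = 0.00151). ST8SIA4, which adds polysialic acid, was at 0.22 and 0.35 at 1 h, 1.23 and 1.51 at 3 h and 1.51 and 1.53 at 6 h. BCAR3, a signalling adaptor, had a single 1 h value of -0.10 and then 0.82 and 1.29 at 3 h. None of these 8 genes was called between 3 and 6 h with or without the run block. AIM2, a sensor of cytosolic DNA, was at 0.11 and 0.092 at 1 h, 0.88 and 1.04 at 3 h and 1.89 and 1.16 at 6 h and differed between 6 and 1 h by 1.42 ± 0.24 (adjusted p = 0.0032), and GPR183 by 1.74 ± 0.26.

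A second group was above 0 at 1 h and lower later. TNFSF9, the 4-1BB ligand, was at 1.47 and 1.40 at 1 h, 0.17 and -0.21 at 3 h and -0.47 and -0.46 at 6 h. Both 1 h arrays were far above 0 and both 6 h arrays below it, with 6 h minus 1 h at -1.90 ± 0.15 (adjusted p = 7.88e-07), the smallest adjusted p for this difference among the 4428 genes tested. HES1, a transcriptional repressor known from Notch signalling, was at 1.49 and 0.70 at 1 h, -0.37 and -0.081 at 3 h and 0.27 and 0.61 at 6 h, with 3 h minus 1 h at -1.32 ± 0.25 (adjusted p = 0.0151); its 2 probes averaged -0.349 and 1.221. DUSP5, a phosphatase of ERK, went from 0.31 and 0.24 at 1 h to -1.31 and -1.30 at 6 h, with 6 h minus 1 h at -1.58 ± 0.18 (adjusted p = 9.67e-05). MAP3K8, a kinase upstream of ERK, was at 0.15 and 0.032 at 1 h, -0.79 and -0.65 at 3 h and -0.92 and -1.18 at 6 h, and the chemokine receptor CXCR4 at 0.37 and 0.23 at 1 h, -0.54 and -0.54 at 3 h and -0.59 and -0.31 at 6 h. DUSP5, MAP3K8 and CXCR4 were not called at 1 h, but by the average of their probes all their 1 h arrays were above 0 and all later ones below. The MAP3K8 probes in replicate 2 at 1 h were at -0.053, -0.045, -0.027 and 0.254.

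A further group was near 0 at 1 h and low by 6 h. ARHGEF3, a guanine nucleotide exchange factor, was at 0.076 and -0.16 at 1 h, -1.26 and -1.42 at 3 h and -1.14 and -1.64 at 6 h, with 3 h minus 1 h at -1.30 ± 0.20 (adjusted p = 0.00204). BHLHE40, a transcriptional repressor, was at 0.016 and -0.14 at 1 h, -1.01 and -0.83 at 3 h and -1.21 and -0.62 at 6 h. PTGS1, cyclooxygenase 1, was at 0.22 and -0.078 at 1 h and at -1.03 and -1.46 at 6 h, a difference of -1.32 ± 0.18 (adjusted p = 0.000682). CD38, HTR3A (a serotonin-gated channel) and DTX4 (a ubiquitin ligase) differed from 1 to 6 h by -1.20, -1.47 and -1.14.

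These calls rest on 2 arrays a time. For 3 h minus 1 h, 5 of the 16 named genes kept their call whichever array was left out, ACP3, ARHGEF3, CLIP1, PTPN1 and TNFSF9, and the other 11 lost it without 1 or more of the arrays at 1 or 3 h (adjusted p 0.0501 to 0.308). For 6 h minus 1 h 9 of 16 kept it, and STAT3, AIM2, PTPN1, SOCS2, ST8SIA4, HTR3A and DTX4 lost it without an array at 1 or 6 h (0.05 to 0.158). After scaling to equal spread 9 of 16 and 3 of 16 kept it, the 3 of the latter being TNFSF9, DUSP5 and PTGS1, and for GPR183 the difference between 6 and 1 h was then 0.58 (adjusted p = 0.999).

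**Figure D4:**
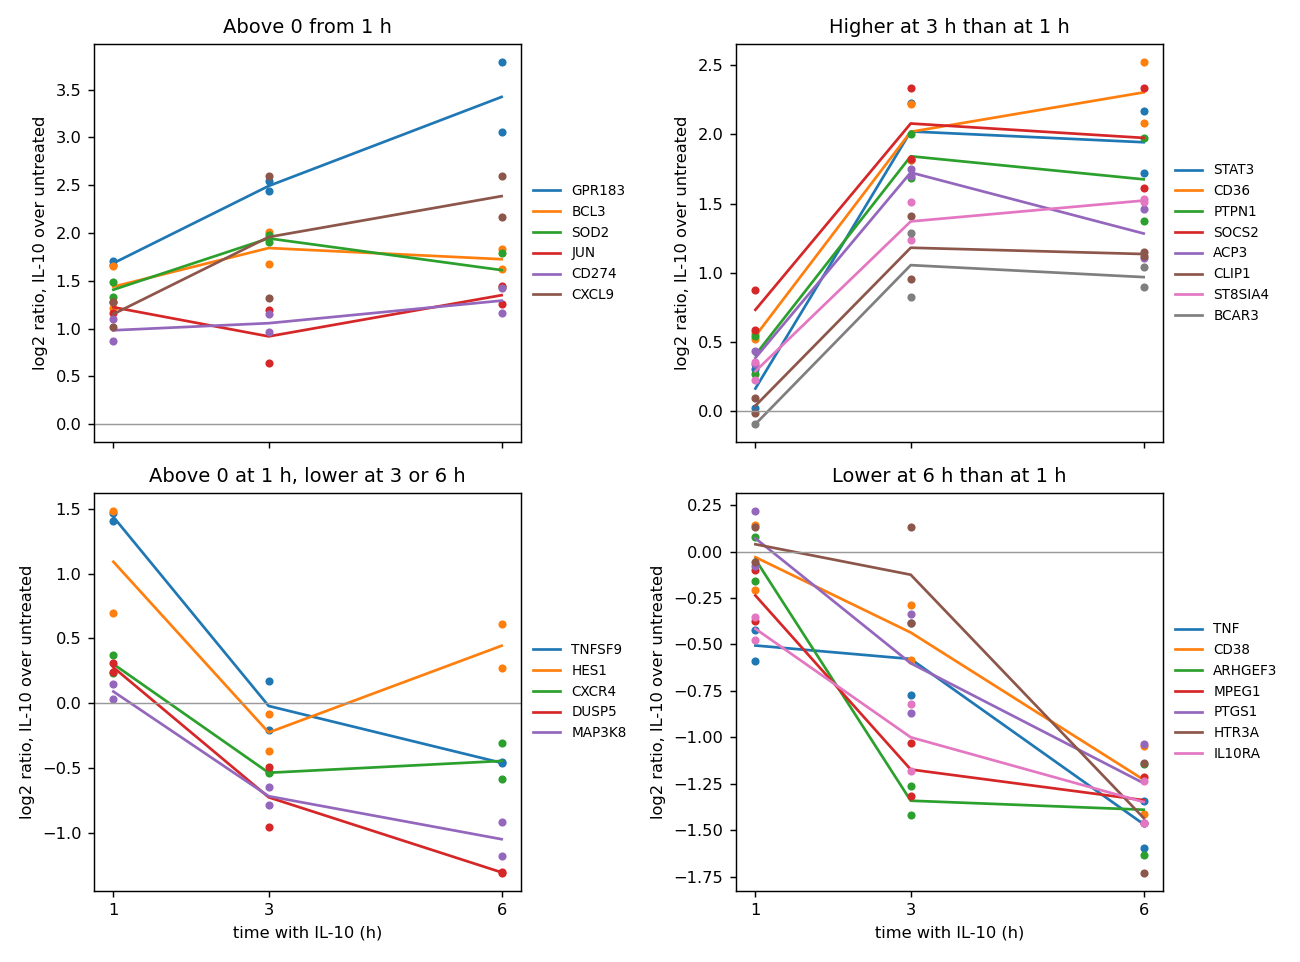
Log2 ratio of IL-10 over untreated cells (vertical) against time in hours (horizontal) for genes above 0 from 1 h, genes higher at 3 h than at 1 h, genes above 0 at 1 h and lower at 3 or 6 h, and genes lower at 6 h than at 1 h; points are arrays and lines join the means of the 2 arrays. STAT3 goes from 0.16 at 1 h to 2.02 at 3 h, and TNFSF9 from 1.44 at 1 h to -0.46 at 6 h.

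The next replicated time, 24 h, differed from the mean of the first 6 h in 139 of 4426 genes (3.14%), 96 higher and 43 lower; the run block gave 256, the replicate block 204 and scaling 89, and without the first 3 h array there were 91. CXCL9 went on to 3.01 and 4.33 at 24 h, 1.84 ± 0.28 above its early mean, and PRDM1 to 1.62 and 2.84. CD274 reached 1.95 and 2.52 and GPR183 4.30 and 3.27, a difference for GPR183 of 1.26 ± 0.21 that was not called after scaling (adjusted p = 0.0898). A further set was larger at 24 h. DHRS9, a retinol dehydrogenase, was at 0.045 and 0.18 at 1 h, 0.65 and 0.84 at 3 h and 1.46 and 0.91 at 6 h and then at 2.31 and 2.30 at 24 h. EVI2B, a membrane protein of blood cells, BANK1, a scaffold of B cell receptor signalling, and P2RY10, a lysophospholipid receptor, were at 0.469 or lower on every early array. At 24 h they stood at 1.48 and 1.07, 1.52 and 1.29 and 0.98 and 0.67. MHC class II genes also differed, 7 of 12 being higher at 24 h than early, beside 2.17% of all genes. Among them were HLA-DQA1 at 0.49 and 0.71 and HLA-DMB at 0.36 and 0.54.

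Other genes were lower at 24 h than early. CDKN1A was at -0.22 and -0.44, a difference of -1.515 ± 0.20 from its early mean (adjusted p = 9.68e-05). TNF was lower still, at -2.30 and -2.12, as were TCL1A, an AKT co-activator, at -1.67 and -1.74 and HTR3A at -2.64 and -3.25. CCND2, cyclin D2, was between -0.32 and 0.31 on the early arrays and at -1.39 and -1.68 at 24 h. CAMP, INSIG1 and FCRL2 were lower at 24 h as well, with differences of -1.24, -1.24 and -1.08. Leaving out 1 of the 6 early arrays at a time did not change the sign of the difference in any of the 16 named genes that could then be tested. CAMP had a value at 1 h only in replicate 1 and could not be tested without that array. The 24 h arrays were not left out in turn. In a fit of the early and 24 h arrays alone, 9 of the 16 genes kept their call.

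Against IL-6 in OCI-Ly10 at the same 3 times and dose, 212 of 3908 genes differed (5.42%), 89 higher (2.28%) and 123 lower (3.15%) with IL-10. The run block gave 77 and the replicate block 362, and scaling gave 297, of which 67 were higher. Line, cytokine and run of arrays differ together in this comparison, as no run held arrays of both, so their parts cannot be told apart. GPR183 averaged 0.69 with IL-6 against 2.53 with IL-10, a difference of 1.84 ± 0.15 (adjusted p = 5.53e-07). STAT3 averaged 0.11 against 1.38, CXCL9 0.34 against 1.83, SOCS2 0.41 against 1.60, CD36 0.45 against 1.62 and CDKN1A 0.08 against 1.18. For ACP3 the difference was 1.11 ± 0.11 and for SOD2 1.14 ± 0.17. BCL3 was high with both, at 0.88 with IL-6, and still differed by 0.78 ± 0.11 (adjusted p = 0.000126). These ratios were farther above 0 with IL-10.

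Genes lower with IL-10 than with IL-6 included some that were near 0 with IL-10. SPP1, osteopontin, averaged 1.19 with IL-6 and 0.09 with IL-10, a difference of -1.10 ± 0.21. TNFRSF18, the receptor GITR, averaged 0.76 against -0.24. HLTF, a DNA helicase, differed by -2.05 ± 0.35, from 1.16 with IL-6 to -0.89 with IL-10, and its arrays with IL-10 ran from -2.51 to 0.36. IMPA1, CSRP3 and PPARD differed by -1.15, -0.93 and -0.88. The calls of CXCR3 and SMAP2 were lost with the run block (adjusted p = 0.188 and 0.0504; from 0.00129 to 0.188 and from 0.00206 to 0.0794 over the alternatives). SOCS3 averaged 0.83 with IL-6, and its difference was not called (adjusted p = 0.0663).

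**Figure D5:**
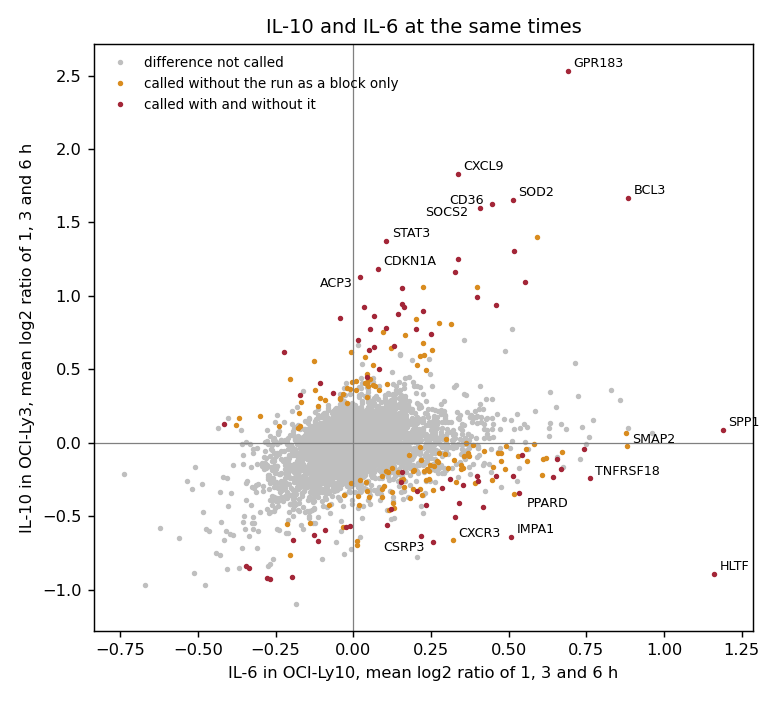
Mean log2 ratio over 1, 3 and 6 h with IL-10 in OCI-Ly3 (vertical) against IL-6 in OCI-Ly10 (horizontal), 1 point per gene tested in both (3908); red points differ with and without the run as a random block, orange points only without it. GPR183 lies at 2.53 with IL-10 and 0.69 with IL-6, BCL3 is high with both, and SPP1 and HLTF lie farthest to the right of the genes plotted.

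No array of the series had its dyes swapped, and a bias of a gene towards 1 dye is therefore part of its ratio. The IL-10 mean was also set against the mean of the other 5 experiments, which carry the same dye orientation. Of 3068 genes with values in all, 248 differed, 132 higher and 116 lower, and 210 of them were also called against 0. The treatments of that reference are themselves aimed at STAT3, at JAK kinases or at NF-kB, or activate STAT3 (IL-6), so dye bias and the reference's own responses cannot be told apart in these differences, and no gene's value is given from them.

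Because STAT3 dimers bind TTCNNNGAA, which reads the same on both strands, RefSeq promoters (build GRCh38.p14, 250 bases before to 50 after the start) were searched for these letters. Promoters matched 23 of the 30 genes named for the mean, and 3 of them held the motif; they are printed to show where it lies, with the motif in capitals.
ACP3: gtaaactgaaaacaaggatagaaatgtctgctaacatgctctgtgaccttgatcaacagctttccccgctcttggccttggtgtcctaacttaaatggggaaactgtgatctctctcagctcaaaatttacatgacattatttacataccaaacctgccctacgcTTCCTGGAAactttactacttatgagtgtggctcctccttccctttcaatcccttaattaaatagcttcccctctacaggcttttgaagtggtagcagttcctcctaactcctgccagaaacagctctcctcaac
CD274: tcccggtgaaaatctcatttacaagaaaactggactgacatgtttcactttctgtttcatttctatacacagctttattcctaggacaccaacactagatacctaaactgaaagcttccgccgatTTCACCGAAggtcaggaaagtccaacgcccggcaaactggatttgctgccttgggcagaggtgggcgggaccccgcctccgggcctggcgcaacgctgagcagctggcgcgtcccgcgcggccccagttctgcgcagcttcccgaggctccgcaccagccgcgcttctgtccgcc
SCYL2: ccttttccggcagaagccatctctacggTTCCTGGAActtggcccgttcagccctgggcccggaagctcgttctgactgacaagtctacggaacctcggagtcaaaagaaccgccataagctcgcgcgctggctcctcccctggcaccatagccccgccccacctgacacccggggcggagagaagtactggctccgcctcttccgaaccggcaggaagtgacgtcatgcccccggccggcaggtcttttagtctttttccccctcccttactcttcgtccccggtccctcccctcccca
The ACP3 window spans chr3:132317157-132317456 on the plus strand and its motif begins 85 bases before the start. In CD274, at chr9:5450292-5450591 on the plus strand, the distance is 125 bases, and in SCYL2, at chr12:100266927-100267226 on the plus strand, 222 bases. ACP3 and CD274 rose, while the fall of SCYL2 did not hold with the run block. Over the table the motif was in 7.66% of 35116 promoters and in 6.69% of the 3618 tested genes that matched. It was in 8.51% of 235 promoters of genes that rose, in 7.32% of the 123 that rose with the run block, and in 7.28% of 302 that fell. At 1 h it was in 1 of 25 promoters of called higher genes. These shares lie close to the share over all tested genes, and a match is a description of the letters, not a binding site.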

How the data were processed

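Gene expression was measured on spotted 2-colour arrays with oligo-dT-primed total RNA (Trizol), per the labels; treated cells were in Cy5 and untreated cells in Cy3. The deposited values are Cy5 over Cy3 log ratios, taken as log2 although no base is stated. The medians of the 40 arrays were -0.031 to 0.011, so the deposited values already lay close to 0. How the authors corrected background, filtered spots, normalized or centred is not stated in the labels. Channel intensities were not used here, and the number of arrays limits the precision.

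Arrays were centred on their medians. Probes with 1 symbol in GEO's platform annotation (10169 of 15246; 5073 had none and 4 several) were averaged to 4604 genes; no symbol needed updating from RefSeq. With limma 3.58.1 in R 4.3.3, 1 mean per experiment and time was fitted over all 40 arrays (lmFit, eBayes), with exact contrasts where values were missing, and p-values were adjusted by Benjamini-Hochberg over all genes tested. Tested genes had a value at each time and on 5 or more of the 6 arrays. The mean of 1, 3 and 6 h and each time were tested against 0, and times, 24 h and IL-6 were compared in the same fit. The untreated RNA is part of each ratio. If arrays shared it, its own variation would not show in the spread between them, and the labels do not say whether they did.

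Array numbers no more than 50 apart were taken as a run (12 in the series; consensus correlation 0.2699). Differences between replicates correlated between times at 0.462, 0.590 and 0.577, so by the rule used the replicate numbers pair the samples. Other alternatives were arrays of these times only, values as deposited, equal spread, stricter and looser filters, the probe median, another eBayes, each array left out (a lone array is then assumed to vary like the others), the mean of the other experiments as reference and, chosen after seeing the data, probes with values on at least 5 of the 6 arrays. The scripts were tested on simulated data.

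Members, gene lists, tests and naming rule were chosen with earlier results of these data known. Named were the 15 highest and 15 lowest called genes of the mean and the 8 of each time, with 1 sign on all measured arrays; the 8 highest and 8 lowest called genes of each difference; in each list, up to 3 called members; and IL10RA, IL10RB, JAK1, TYK2, STAT3, SOCS1, SOCS3, BCL3, IL10, IL6, TNF, PRDM1, NFKBIA, CD274, MYC and PIM1. A further gene of the rule is not reported here. Other genes are named where the text says so.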

Additional observations from a re-analysis of the deposited data

Results flagged for a closer look

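Several genes moved to opposite sides of 0 at different times, with a called difference between the times. For 3 h minus 1 h these were BCAR3 at 1.15 (1 array at 1 h), HES1 at -1.32, DUSP5 at -1.003, CXCR4 at -0.84 and MAP3K8 at -0.81. In each case the average of the gene's probes lay above 0 on all arrays of one time and below it on all of the other. Single probes did not always do so. For 6 h minus 1 h they were TNFSF9 at -1.90, DUSP5 at -1.58, MAP3K8 at -1.14 and DTX4 at -1.14. P2RY10 was below 0 on all 6 early arrays and above it on both at 24 h, a difference of 1.26, and CDKN1A was above 0 early and below it at 24 h, a difference of -1.515. TNFSF9, with ratios of 1.47 and 1.40 at 1 h, 0.17 and -0.21 at 3 h and -0.47 and -0.46 at 6 h, is measured by 2 probes, which averaged 0.239 and 0.397. Both HES1 probes were lower at 3 h than at 1 h, but the high values at 1 h, 2.819 and 1.477, came from 1 of them, the other being at 0.154 and -0.084. The probe with the high values was still at 0.058 and 0.605 at 3 h, so neither probe by itself showed the change of sign on all arrays. For MAP3K8 the probes in replicate 2 at 1 h were at -0.053, -0.045, -0.027 and 0.254.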

How the results depend on the processing

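Of the 205 tests of named genes, that of SOCS3 alone changed sign while called in either fit, with means of -0.054 (probe median) and -0.125 (probes on at least 5 arrays). Of these tests 201 were called without a block; scaling to equal spread still called 171 of them, the run block 183, the replicate block 200 and these arrays alone 99. Over the mean, the run block gave 270 genes, these arrays alone 125, the replicate block 1009 and the mean of the other experiments as reference 248. For 1, 3 and 6 h, these arrays alone gave 2, 24 and 48 and the replicate block 73, 294 and 556; scaling gave 79 at 1 h and 89 at 6 h. For 3 h minus 1 h the run block gave 43, scaling 10 and these arrays alone 0; for 6 h minus 1 h 81, 4 and 0, and the replicate block 76. For any difference they gave 77, 5 and 0, and 66. For 6 h minus 3 h both blocks gave 6 and the probe median 1. For 24 h the run block gave 256, these arrays alone 15 and scaling 89, and against IL-6 the run block gave 77, these arrays alone 85 and the replicate block 362. Leaving out 1 array gave 357 to 618 for the mean, 26 to 48 at 1 h, 84 to 198 at 3 h, 146 to 337 at 6 h, 11 to 26 for 3 h minus 1 h, 0 to 9 for 6 h minus 3 h, 22 to 51 for 6 h minus 1 h, 18 to 61 for any difference, 91 to 151 for 24 h and 144 to 252 against IL-6. Fewer arrays enter the fits of these arrays alone and those without an array; the cause of the other changes was not tested. With 2 arrays a time, the number of arrays limits what can be called between times.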
